A study of Mus musculus with 4 samples.

Results

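The BCL2 family decides whether the mitochondrial outer membrane is kept closed or is opened by pores during apoptosis. RNA of 10 of its genes was followed in splenic Treg cells, which are CD4+ T cells that express *Foxp3* and restrain immune responses. The count table listed 47729 genes. Of these, 10 were chosen by name for their textbook roles, with no rule on measured values but with earlier results of these data known. They comprise the pro-survival genes *Bcl2*, *Bcl2l1* (encoding BCL-XL) and *Mcl1*, the pore-forming genes *Bax* and *Bak1*, and the BH3-only genes *Bcl2l11* (encoding BIM), *Bbc3* (encoding PUMA), *Pmaip1* (encoding NOXA), *Bid* and *Bad*. All 10 had enough counts to be tested.

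The cells came from female C57BL/6 mice of 2 genotypes, aged 6 to 8 weeks, and each genotype had 2 libraries. The mice of the first genotype were *Tfrc* +/+ *Foxp3* YFP-Cre/+ (WT) and those of the second were *Tfrc* fl/fl *Foxp3* YFP-Cre/+ (TfR1-deficient). *Tfrc* encodes TfR1, the receptor that takes up transferrin-bound iron. Both genotypes thus carried 1 *Foxp3* allele that makes YFP-Cre. *Foxp3* lies on the X chromosome, so a heterozygous female has Treg cells with and without Cre, and the CD25+YFP+ cells that were sorted are those that make it. These mice also keep YFP- Treg cells with an intact *Tfrc* gene. The labels name the spleen as the tissue, whereas a legend of the study adds lymph nodes. Whether animals were pooled is not given in the sources used here. The labels call the libraries replicates without saying that they came from separate mice, so p-values measure the spread between these libraries.

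Pro-survival proteins of the family bind and hold back both the pore-formers and the BH3-only proteins. BAX and BAK, once active, assemble into pores that release cytochrome c, which starts the caspase cascade. BH3-only proteins are the sensors of the pathway: BIM responds to loss of cytokine signals, PUMA and NOXA are induced by p53, BID links death receptors to mitochondria, and BAD is held in check by growth factor signals. NOXA binds mainly MCL-1, whereas BIM and PUMA bind all the main pro-survival proteins. In Treg cells, IL-2 signalling through STAT5 is known to support survival, and BIM and MCL-1 are known to set how many of these cells are kept.

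Promoter sequence shows which of these genes carry the letters of 4 short motifs. They include those of STAT5 and FOXO factors, which act in cytokine and growth signalling. RefSeq windows on GRCm38.p6, from 250 bases before to 50 bases after a start site, were searched on both strands. The motifs were TTCNNNGAA (the STAT5 core), GTAAACA (the FOXO core), GGGCGG (a GC box) and CACGTG (an E-box). The search covered 15 windows of 9 of the 10 genes, all but *Pmaip1*. The STAT5 core was in 0 of these 15 windows and in 8.30% of all 32851 windows. The FOXO core was in 2 of the 15 and in 3.65% of all windows. A GC box was in 10 of the 15 and in 35.7% of all windows. Many of the 15 were rich in G and C, and these shares are not matched for that. Their GC content ran from percentile 38.1 of all windows, in *Bcl2l1*, to percentile 98.2, in *Bbc3*. The E-box was in 2 of the 15 and in 7.15% of all windows. A match is only a run of letters in these windows, and the 3 windows of *Bbc3* include a pair that overlap each other. Printed here are the window of *Bcl2*, the gene of the 10 with the most counts, which holds 7 GC boxes (chr1:106714241-106714540, minus strand), and the 2 windows with a FOXO core, of *Bcl2l11* (chr2:128125788-128126087, plus strand) and *Bbc3* (chr7:16310011-16310310, plus strand). Each reads 5′ to 3′ on the strand of the gene, and capitals mark matches to any of the 4 motifs on either strand.
*Bcl2* promoter: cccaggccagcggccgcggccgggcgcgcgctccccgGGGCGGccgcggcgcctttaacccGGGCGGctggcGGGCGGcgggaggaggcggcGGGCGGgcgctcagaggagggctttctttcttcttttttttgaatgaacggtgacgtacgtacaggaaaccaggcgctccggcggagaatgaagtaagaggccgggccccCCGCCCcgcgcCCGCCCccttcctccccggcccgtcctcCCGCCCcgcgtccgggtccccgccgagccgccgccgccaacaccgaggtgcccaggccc
*Bcl2l11* promoter: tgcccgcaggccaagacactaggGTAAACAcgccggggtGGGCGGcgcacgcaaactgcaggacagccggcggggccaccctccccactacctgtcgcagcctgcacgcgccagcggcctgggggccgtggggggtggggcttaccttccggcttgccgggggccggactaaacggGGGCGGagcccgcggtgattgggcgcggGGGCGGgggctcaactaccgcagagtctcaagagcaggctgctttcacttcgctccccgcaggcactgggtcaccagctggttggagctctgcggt
*Bbc3* promoter: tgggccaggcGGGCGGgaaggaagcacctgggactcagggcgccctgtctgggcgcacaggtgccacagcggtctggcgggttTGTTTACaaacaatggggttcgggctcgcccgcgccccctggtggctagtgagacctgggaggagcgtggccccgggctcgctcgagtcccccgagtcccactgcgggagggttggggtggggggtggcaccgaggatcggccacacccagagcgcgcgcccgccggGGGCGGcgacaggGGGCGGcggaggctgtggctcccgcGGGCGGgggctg
In the *Bcl2* window all the capitals are GC boxes, GGGCGG on the printed strand or CCGCCC for the opposite one. In the *Bcl2l11* window the FOXO core GTAAACA is on the printed strand, and in the *Bbc3* window it is on the opposite strand and reads TGTTTAC.

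The libraries held between 10841939 and 17278448 counts. *Tfrc* was at 50.8 and 54.1 CPM (counts scaled to a common library size with TMM factors) in WT and 56.1 and 48.3 CPM in the libraries with the TfR1-deficient label. Its log2 fold change was -0.01 (SE 0.16), so counts per gene did not tell the genotypes apart and each direction given here rests on the labels. *Ctla4*, a Treg cell marker chosen here after its values were seen, stood at 407 and 427 CPM in WT and at 241 and 235 CPM in the libraries with the TfR1-deficient label (adjusted p = 0.0058 by DESeq2 and 0.911 by edgeR). Reads per gene do not show whether floxed exons were present. The 7 Treg cell markers were all expressed and summed to 4903 and 4638 CPM in WT and to 3992 and 3587 CPM in the libraries with the TfR1-deficient label. *Foxp3* was at 194 and 130 CPM in WT and at 122 and 114 CPM in the others. WT replicate 1 and TfR1-deficient replicate 2 stood apart from the other pair. All 15 macrophage markers were higher in this pair, with sums of 1161 and 3485 CPM against 96.6 CPM for WT replicate 2 and 70.6 CPM for TfR1-deficient replicate 1, and *Csf1r*, the receptor for macrophage growth factor, was at 124 and 371 CPM against 1.97 and 4.96 CPM. The 8 proliferation markers were also higher in both, with sums of 692 and 612 CPM against 180.1 and 180.4 CPM, with 90.5 and 82.0 CPM of *Mki67* beside 28.7 and 34.7 CPM. Sums over the erythroid markers ran from 16.9 to 277 CPM, with 113 and 277 CPM in WT replicate 2 and TfR1-deficient replicate 2. The other lists were low, with B cell sums from 25.4 to 41.9 CPM, CD8 T cell sums from 10.8 to 12.3 CPM, NK cell sums from 1.78 to 2.85 CPM and platelet sums from 1.06 to 3.09 CPM. The difference of each of the 10 genes is therefore also given within the pair of libraries with few macrophage transcripts (TfR1-deficient replicate 1 minus WT replicate 2) and within the pair with many (TfR1-deficient replicate 2 minus WT replicate 1). The pair with many was itself uneven, with macrophage sums of 1161 CPM in WT and 3485 CPM in TfR1-deficient. Erythroid sums, WT first, were 16.9 and 277 CPM in that pair and 113 and 42.9 CPM in the pair with few. Differences within a pair are thus not fully matched for such transcripts.

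No gene of the 10 passed the test after adjustment over all genes. By the quasi-likelihood test of edgeR, adjusted by Benjamini-Hochberg, 0 of the 10 passed an adjusted p of 0.05 with a log2 fold change of 0.5 or more in either direction, beside 0% of the 12536 genes tested, whose lowest adjusted p was 0.266. DESeq2 also called 0 of the 10, beside 0.284% of the 11960 genes it adjusted. Before adjustment, 1 of the 10 genes was higher at p under 0.05 (*Bcl2*), beside 1.88% of all genes, and 1 was lower (*Pmaip1*), beside 3.34%. DESeq2 had the same 2 genes under 0.05 before adjustment, beside 2.74% of the 22368 genes with any count. That set is wider than the 12536 genes tested by edgeR, so the shares are not alike. Both libraries with the TfR1-deficient label lay above both WT libraries for 3 of the 10 genes (*Bcl2*, *Mcl1* and *Bax*), beside 16.0% of all genes, and below them for 1 (*Pmaip1*), beside 18.9%. The other 6 overlapped. The median log2 fold change (TfR1-deficient minus WT) of the 10 genes was 0.04 and that of all genes 0.01, and the median absolute value was 0.16 for the 10 and 0.21 for all. With 2 libraries against 2, the exact two-sided permutation p of any gene is at least 0.333, so p-values here come from fits that share the spread across genes.

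**Figure D1:**
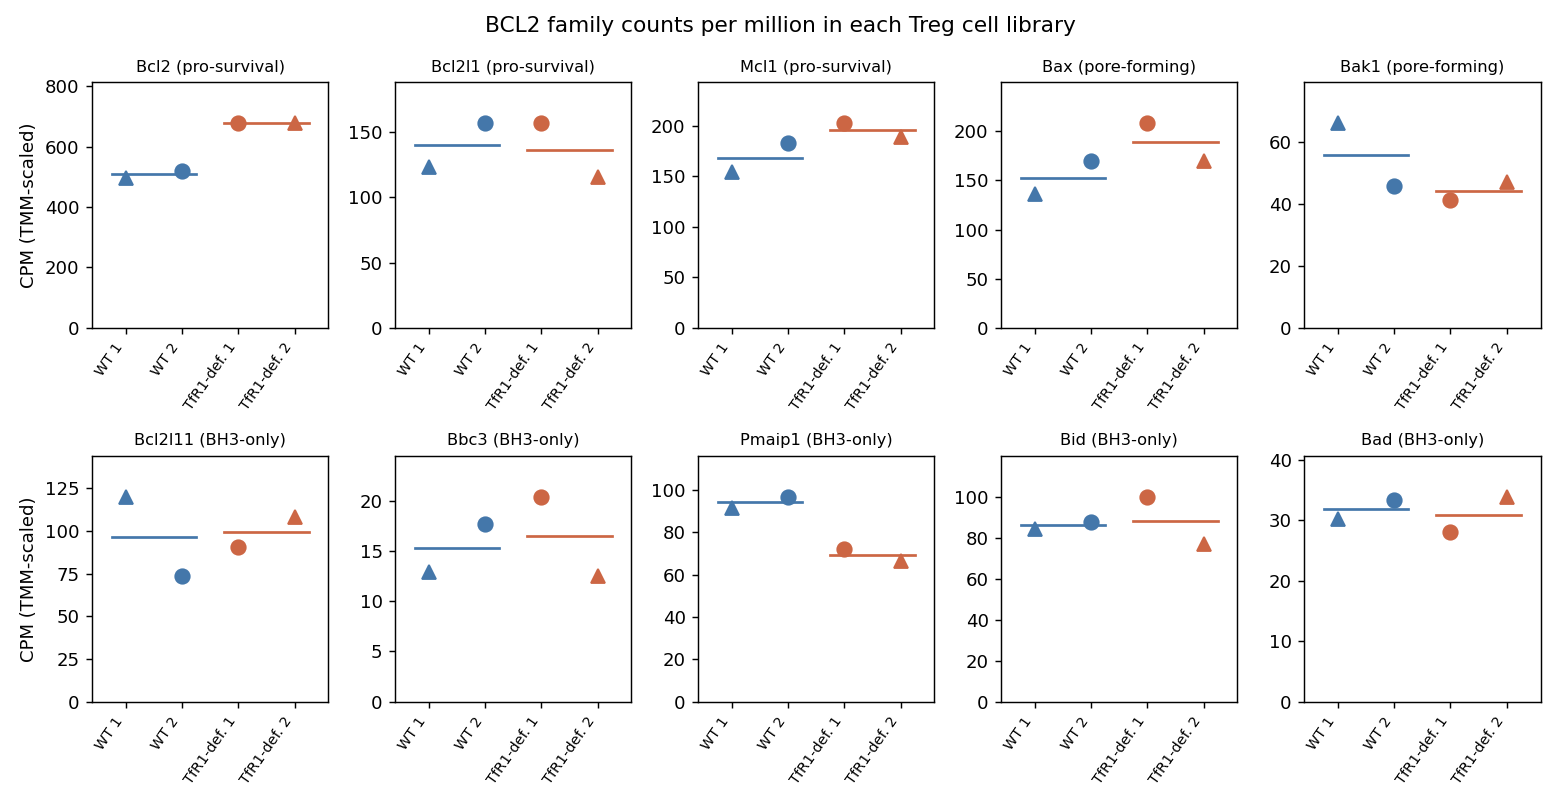
CPM (TMM-scaled, linear axis from 0) of each of the 10 genes in each library, with blue for WT and orange for TfR1-deficient, triangles for the pair of libraries rich in macrophage transcripts, circles for the other pair and lines at the genotype means. *Bcl2* reached 676 and 677 CPM in the libraries with the TfR1-deficient label against 496 and 519 CPM in WT, *Pmaip1* lay at 71.9 and 66.6 CPM against 91.5 and 96.6 CPM, and 6 of the genes overlapped between genotypes.

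*Bcl2*, the pro-survival gene that gave the family its name, had the largest positive log2 fold change of the 10. It was at 496 and 519 CPM in WT (6060 and 5534 counts), and it reached 676 and 677 CPM in the libraries with the TfR1-deficient label (11733 and 9273 counts). The means were 507 ± 16.0 CPM (SD, n = 2) and 677 ± 0.580 CPM (SD, n = 2), which is 33.3% higher. All its libraries with the TfR1-deficient label were thus above both WT libraries, and the gap between genotypes exceeded the gap between replicates. The log2 fold change was 0.42 (SE 0.13, 95% interval 0.09 to 0.74, unadjusted p = 0.0225 and adjusted p = 0.911 by edgeR). It was 0.38 in the pair with few macrophage transcripts and 0.45 in the pair with many. The shared direction follows from genotypes that did not overlap, so it adds no separate check. Leaving out any 1 library gave 0.40 to 0.45, with unadjusted p from 0.0816 to 0.114 by edgeR's test across all genes. In absolute size the fold change of *Bcl2* exceeded or equalled those of 74.0% of all genes tested. In these bulk samples, a change in the share of cells that express a gene and a change in RNA per cell cannot be told apart.

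*Bcl2* lies on chromosome 1 (106538176 to 106714290, minus strand, GRCm38.p6), and in GENCODE vM1 its exons share 558 bases with *D630008O14Rik*, a transcript on the opposite strand. Whether the counting used strand is not given in the sources used here, so reads from the shared bases cannot be told apart. *D630008O14Rik* itself had 33 and 55 counts in WT and 135 and 89 counts in the libraries with the TfR1-deficient label, far fewer than *Bcl2*.

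*Mcl1* encodes a short-lived pro-survival protein that T cells need continuously. Its levels were 154 and 183 CPM in WT and 202 and 189 CPM in the libraries with the TfR1-deficient label. The genotypes did not overlap, but WT replicate 2 and TfR1-deficient replicate 2 were close, and the log2 fold change of 0.22 (SE 0.15, 95% interval -0.17 to 0.61, adjusted p = 0.947 by edgeR) did not pass the test. The difference was 0.15 within the pair with few macrophage transcripts and 0.30 within the pair with many. *Bcl2l1*, the gene of BCL-XL, was at 123 and 157 CPM in WT and again at 157 and 115 CPM in the libraries with the TfR1-deficient label. These levels overlapped, with a log2 fold change of -0.04 (SE 0.22, 95% interval -0.59 to 0.51, adjusted p = 0.991 by edgeR). The difference was -0.0005 within the pair with few macrophage transcripts and -0.10 within the pair with many. Both low values of *Bcl2l1* were in the libraries with many macrophage transcripts. *Mcl1* lies on chromosome 3 (95656944 to 95663179, plus strand) and *Bcl2l1* on chromosome 2 (152758732 to 152833803, minus strand).

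*Bax* and *Bak1*, whose proteins form the pores and can largely stand in for each other, had fold changes of opposite sign. *Bax* was at 136 and 169.6 CPM in WT and at 208 and 169.9 CPM in the libraries with the TfR1-deficient label. WT replicate 2 and TfR1-deficient replicate 2 were nearly equal, so the genotypes were separated by only a fraction of 1 CPM. The log2 fold change of *Bax* was 0.31 (SE 0.19, 95% interval -0.17 to 0.78, adjusted p = 0.934 by edgeR), with 0.30 and 0.32 within the pairs with few and many macrophage transcripts. *Bak1* was at 66.1 and 45.9 CPM in WT and at 41.4 and 47.1 CPM in the libraries with the TfR1-deficient label. WT replicate 1 was the high library, and the other 3 lay close together. The log2 fold change of *Bak1* was -0.34 (SE 0.22, 95% interval -0.91 to 0.23, adjusted p = 0.934 by edgeR), and without WT replicate 1 it was -0.03. Within the pairs with few and many macrophage transcripts it was -0.15 and -0.49. *Bax* lies on chromosome 7 (45461695 to 45466903, minus strand). *Bak1* lies on chromosome 17 (27019812 to 27028627, minus strand), where its exons share 357 bases with *Ggnbp1* on the opposite strand, a gene with 12 to 26 counts per library.

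Of the 5 BH3-only genes, *Pmaip1* alone had genotypes that did not overlap. *Pmaip1* was at 91.5 and 96.6 CPM in WT and at 71.9 and 66.6 CPM in the libraries with the TfR1-deficient label, with means of 94.1 ± 3.62 CPM and 69.3 ± 3.78 CPM (SD, n = 2 each). The mean was lower in the libraries with the TfR1-deficient label by more than the spread between replicates, a difference of -26.4%. The log2 fold change was -0.44 (SE 0.14, 95% interval -0.79 to -0.09, unadjusted p = 0.0225 and adjusted p = 0.911 by edgeR). Within the pair with few macrophage transcripts it was -0.43 and within the pair with many it was -0.46. Leaving out any 1 library gave -0.47 to -0.39, with unadjusted p from 0.0590 to 0.143 by edgeR's test across all genes. *Pmaip1* lies on chromosome 18 (66458604 to 66465558, plus strand). The Treg cell marker sum was lower in the same 2 libraries, and its part in the differences of *Pmaip1* and *Bcl2* was not tested.

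*Bcl2l11*, the gene of BIM, was at 120 and 73.5 CPM in WT and at 90.8 and 108 CPM in the libraries with the TfR1-deficient label. The 2 high values belonged to WT replicate 1 and TfR1-deficient replicate 2, the libraries with many macrophage and proliferation transcripts. Its log2 fold change was 0.04 (SE 0.27, 95% interval -0.63 to 0.72, adjusted p = 0.994 by edgeR), and it was 0.30 within the pair with few macrophage transcripts and -0.15 within the pair with many. *Bbc3*, the gene of PUMA, was the lowest of the 10 genes, at 12.9 and 17.7 CPM in WT and at 20.4 and 12.6 CPM in the libraries with the TfR1-deficient label. Its 2 low values were in the libraries where *Bcl2l11* was high. The log2 fold change of *Bbc3* was 0.11 (SE 0.34, 95% interval -0.77 to 0.98, adjusted p = 0.990 by edgeR), the widest interval of the 10 genes. *Bcl2l11* lies on chromosome 2 (128126038 to 128162547, plus strand) and *Bbc3* on chromosome 7 (16308398 to 16318334, plus strand). The difference of *Bbc3* was 0.20 within the pair with few macrophage transcripts and -0.04 within the pair with many.

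*Bid*, the substrate of caspase-8, was at 84.4 and 87.8 CPM in WT and at 99.9 and 76.8 CPM in the libraries with the TfR1-deficient label. The WT values lay between the others, and the log2 fold change was 0.04 (SE 0.18, 95% interval -0.41 to 0.49, adjusted p = 0.990 by edgeR). Within the pairs with few and many macrophage transcripts the difference of *Bid* had opposite signs, 0.19 and -0.14. *Bad* was at 30.3 and 33.4 CPM in WT and at 28.0 and 33.9 CPM in the libraries with the TfR1-deficient label. These values also overlapped, with a log2 fold change of -0.04 (SE 0.20, 95% interval -0.55 to 0.46, adjusted p = 0.990 by edgeR). Signs were opposite within the pairs for *Bad* as well, at -0.25 with few and 0.16 with many macrophage transcripts. *Bid* lies on chromosome 6 (120893119 to 120917062, minus strand) and *Bad* on chromosome 19 (6941861 to 6951905, plus strand). The exons of *Bid* share 628 bases with *Bcl2l13* and those of *Bad* share 517 bases with *Gpr137*, each on the opposite strand. *Bcl2l13* had 752 to 1073 counts per library and *Gpr137* had 63 to 127. Each interval of these 4 genes includes changes of over 0.4 in both directions.

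**Figure D2:**
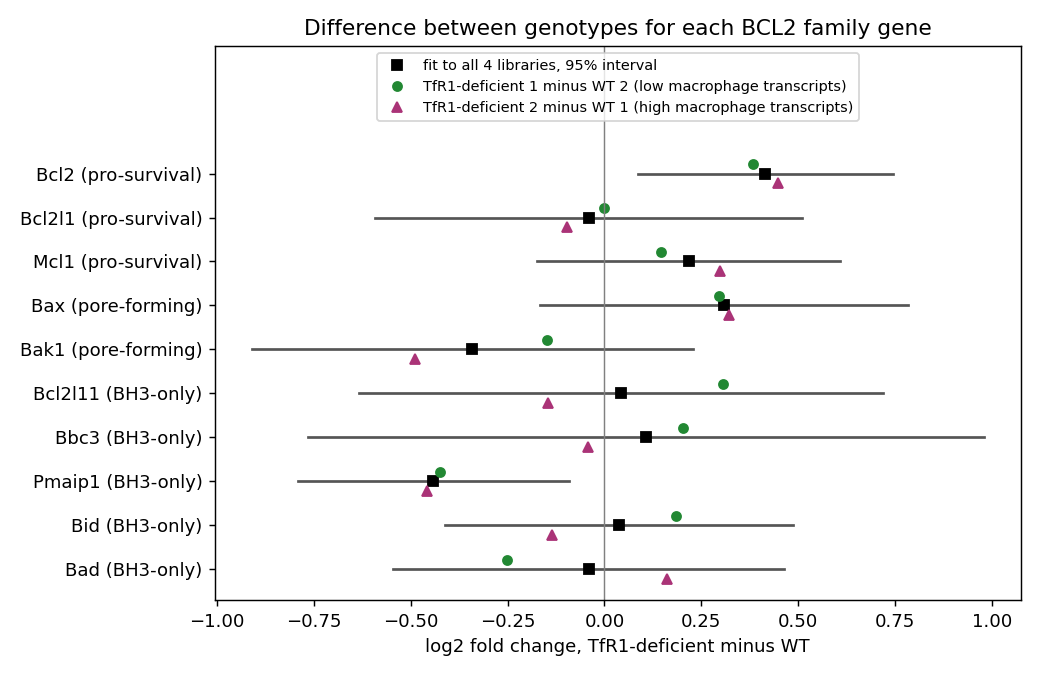
Log2 fold change (TfR1-deficient minus WT) of each of the 10 genes, with black squares and bars for the fit to all 4 libraries and its 95% interval, green circles for the pair with few macrophage transcripts and purple triangles for the pair with many. The intervals of *Bcl2* (0.09 to 0.74) and *Pmaip1* (-0.79 to -0.09) lie on 1 side of 0, and the other 8 include 0. For *Bcl2*, *Mcl1*, *Bax*, *Bak1* and *Pmaip1* both pairs lie clearly on the same side. Genotypes that did not overlap fix this in advance for all of these but *Bak1*.

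The split of the libraries by macrophage and proliferation transcripts was about as frequent among these genes as among all genes. WT replicate 1 and TfR1-deficient replicate 2 were both above the other libraries for 2 of the 10 genes (*Bcl2l11* and *Bak1*), beside 22.9% of all genes, and both below them for 3 (*Bcl2l1*, *Bbc3* and *Bid*), beside 25.5%. For *Bak1* the margin was small, at 47.1 CPM in TfR1-deficient replicate 2 beside 45.9 CPM in WT replicate 2. Between the WT libraries, the log2 difference of replicate 1 minus replicate 2 was 0.70 for *Bcl2l11*, 0.52 for *Bak1*, -0.45 for *Bbc3* and -0.35 for *Bcl2l1*. Between the libraries with the TfR1-deficient label, replicate 2 minus replicate 1 was -0.69 for *Bbc3*, -0.44 for *Bcl2l1* and -0.38 for *Bid*. For *Bcl2* these differences were -0.06 and 0.002, so its replicates were close. The part of macrophage or proliferating cells in these differences was not tested.

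Levels can be compared between genes only per length, here as CPM per kilobase of merged exons (CPM/kb, exon lengths of GENCODE vM1) over the 4 libraries. *Bax* was the highest, with a mean of 128 CPM/kb and a range of 102 to 155 CPM/kb. *Bcl2* followed at 82.3 CPM/kb (69.0 to 94.1 CPM/kb) and *Mcl1* at 52.2 CPM/kb (44.1 to 58.1 CPM/kb). These 3 ranges did not overlap one another or those of the genes below. *Pmaip1* at 30.9 CPM/kb, *Bcl2l1* at 29.1 CPM/kb, *Bid* at 24.6 CPM/kb and *Bak1* at 20.8 CPM/kb formed a middle set in which each range overlapped its neighbour. *Bad* at 15.6 CPM/kb, *Bcl2l11* at 12.2 CPM/kb and *Bbc3* at 7.92 CPM/kb were the lowest, and each overlapped its neighbour in that order. With the longest coding transcript in place of merged exons, *Bax*, *Bcl2*, *Bcl2l11* and *Bbc3* kept their ranks and *Bcl2l1* moved from rank 5 to rank 3. Among the pro-survival genes *Bcl2* thus had the highest level per length, and among the BH3-only genes *Bbc3* the lowest.

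The ratio of a survival gene to a death gene within a library does not depend on the scaling between libraries. Counts of *Bcl2* exceeded those of *Bcl2l11* by 4.14-fold and 7.06-fold in the WT libraries and by 7.44-fold and 6.25-fold in the libraries with the TfR1-deficient label. WT replicate 1 was low and the other 3 libraries were close, so the genotypes overlapped, with a difference of 0.34 in the mean log2 ratio that was -0.05 without WT replicate 1. The ratio of *Mcl1* to *Bcl2l11* was 1.28 and 2.49 in WT and 2.23 and 1.75 in the others, and that of *Bcl2l1* to *Bcl2l11* was 1.03 and 2.13 in WT and 1.72 and 1.06 in the others. Both followed the split by macrophage transcripts, low in WT replicate 1 and TfR1-deficient replicate 2. *Bcl2* to *Bax* stood at 3.65 and 3.06 in WT and at 3.25 and 3.98 in the others, and *Mcl1* to *Bax* at 1.13 and 1.08 in WT and at 0.972 and 1.11 in the others. These ratios also overlapped between genotypes.

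The ratio of *Bcl2* to *Bak1* did not overlap. It was 7.50 and 11.3 in WT and 16.3 and 14.4 in the libraries with the TfR1-deficient label, which are mean log2 ratios of 3.20 ± 0.42 and 3.94 ± 0.13 (SD, n = 2 each) and a difference of 0.73. Without WT replicate 1 this difference was 0.44. A pair of ratios with *Pmaip1* was added after the values had been seen, so their size is a description only. *Bcl2* to *Pmaip1* was 5.42 and 5.37 in WT and 9.40 and 10.2 in the libraries with the TfR1-deficient label, a difference of 0.86 in the mean log2 ratio. *Mcl1* to *Pmaip1* was 1.68 and 1.89 in WT and 2.81 and 2.84 in the others, a difference of 0.66. In both, the replicates of a genotype were closer to each other than the genotypes were. That these ratios did not overlap was fixed by the choice, since *Bcl2*, *Mcl1* and *Pmaip1* each already differed without overlap.

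**Figure D3:**
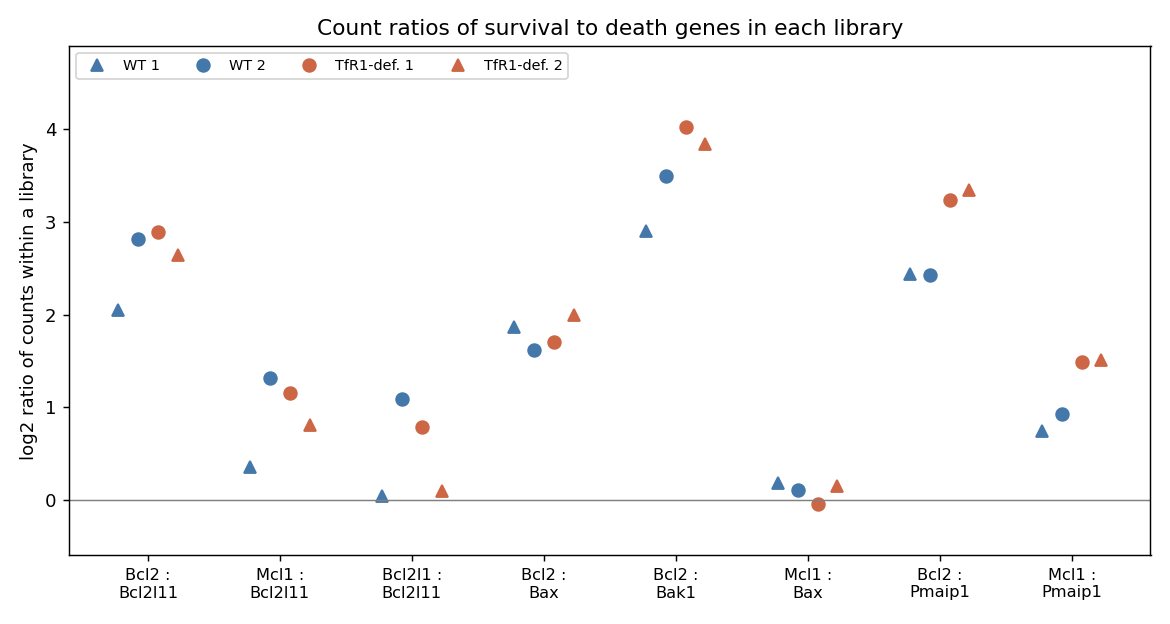
Log2 ratio of the counts of a survival gene to those of a death gene in each library (linear axis of log2 values), with blue for WT, orange for TfR1-deficient and triangles for the pair of libraries rich in macrophage transcripts. Ratios to *Bcl2l11* and *Bax* overlapped between genotypes, whereas *Bcl2* to *Bak1*, and the *Pmaip1* pairs chosen after seeing the values, did not. For the *Pmaip1* pairs this was fixed by genes that did not overlap themselves.

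*Pmaip1* and *Bcl2* had nearly equal unadjusted p in the edgeR fit, and *Pmaip1* was taken for a search of like profiles because its p was lower there (0.02245 against 0.02250), whereas DESeq2 gave the lower p to *Bcl2* (0.0142 against 0.0383). The genes whose profile over the 4 libraries was nearest to it were *Manea*, *Slc25a14* and *Cetn2*. Their Euclidean distances in centred log2 CPM were 0.021, 0.025 and 0.030, and 39 of the 12535 other genes were within 0.1. Fold changes near that of *Pmaip1* follow from this choice by profile. *Manea*, at 4.02 to 5.81 CPM, had a log2 fold change of -0.44. *Slc25a14*, at 10.7 to 15.8 CPM, had a log2 fold change of -0.44, and *Cetn2*, at 51.6 to 72.9 CPM, had one of -0.42.

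The wider death and survival machinery was described by 7 lists with 78 tested genes of 87 listed. None was called by edgeR or by DESeq2 (0 of 78), and before adjustment 0 were higher and 1 was lower at p under 0.05 by edgeR, and 2 were under 0.05 by DESeq2 (*Tnfrsf1b* and *Jak3*). Both libraries with the TfR1-deficient label were above WT for 8 of the 78 (10.3%, beside 16.0% of all genes) and below for 16 (20.5%, beside 18.9%), and the median log2 fold change was -0.05, beside 0.01 for all genes. By list it was -0.11 for the death receptor pathway, -0.06 for the apoptosome and caspases, -0.05 for the p53 pathway, -0.04 for cytokine survival signalling and -0.01 for binding partners and turnover. Leaving out 1 library moved the medians of these 5 lists to between -0.21 and 0.14.

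The 1 gene under 0.05 was *Tnfrsf1b*, which encodes TNFR2, a TNF receptor that supports Treg cells and has no death domain. *Tnfrsf1b* was at 189 and 142 CPM in WT and at 80.9 and 94.8 CPM in the libraries with the TfR1-deficient label. The genotypes were well separated, and the difference was -0.82 within the pair with few macrophage transcripts and -0.99 within the pair with many. The log2 fold change was -0.92 (SE 0.20, unadjusted p = 0.0050 and adjusted p = 0.911 by edgeR), and DESeq2 gave an adjusted p of 0.0716. With all genes of at least 1 count in any library kept, edgeR called it (log2 fold change -0.90, adjusted p = 0.00073). The other 12 genes of the death receptor list had p above 0.05, among them *Fas* at 127 and 132 CPM in WT and 144 and 126 CPM in the others, and *Casp8*, the initiator caspase of this arm, with 420 and 449 CPM against 415 and 453 CPM.

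Downstream of the mitochondria, 15 genes of the apoptosome and caspase list were tested and 0 had p under 0.05. The lowest p belonged to *Cycs*, the gene of cytochrome c, at 116 and 124 CPM in WT and 146 and 149 CPM in the libraries with the TfR1-deficient label (log2 fold change 0.30, SE 0.13, unadjusted p = 0.0732 and adjusted p = 0.911 by edgeR). Both libraries with the TfR1-deficient label were thus above WT for *Cycs*, by 0.24 and 0.36 on the log2 scale within the pairs with few and many macrophage transcripts.

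Upstream, 17 genes of cytokine survival signalling were tested and 0 had p under 0.05 by edgeR, with 2 above and 6 below WT in both libraries, beside 16.0% and 18.9% of all genes. *Jak3*, the kinase bound to the common gamma chain of cytokine receptors, had the lowest p, at 441 and 294 CPM in WT and 246 and 269 CPM in the libraries with the TfR1-deficient label (log2 fold change -0.52, SE 0.23, unadjusted p = 0.0697 and adjusted p = 0.911 by edgeR). *Il2rb*, the IL-2 receptor beta chain, was at 1676 and 1033 CPM in WT and 863 and 1009 CPM in the others. *Jak3* and *Il2rb* were both highest in WT replicate 1, and the difference of *Jak3* was -0.26 within the pair with few macrophage transcripts and -0.72 within the pair with many. *Foxo1*, whose protein drives *Bcl2l11* when growth signals fade, was at 82.0 and 131 CPM in WT and 149 and 103 CPM in the others, and so followed the split by macrophage transcripts, as did *Foxo3* at 26.4 and 40.8 CPM in WT and 49.3 and 29.4 CPM in the others.

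The p53 list, which includes the inducers and other targets of the pathway that acts on *Bbc3* and *Pmaip1*, had 14 tested genes, 0 of them at p under 0.05. *Trp53* itself was at 243 and 182 CPM in WT and 187 and 244 CPM in the libraries with the TfR1-deficient label, high in the pair rich in macrophage transcripts. *Phlda3*, a p53 target, had the lowest p of this list but rested on 6 to 31 counts per library (log2 fold change 1.47, SE 0.66, unadjusted p = 0.0753 and adjusted p = 0.911 by edgeR). Of 12 binding partners and turnover factors, *Ywhab*, a 14-3-3 protein of the family that holds BAD, had the lowest p, at 147 and 119 CPM in WT and 156 and 176 CPM in the others (log2 fold change 0.32, SE 0.17, unadjusted p = 0.116 by edgeR's test across all genes).

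Less studied relatives of the family completed the lists. Of 5 other pro-survival genes 2 were tested. *Bcl2a1b*, a gene of the A1 cluster, was at 13.0 and 10.5 CPM in WT and 7.26 and 8.25 CPM in the libraries with the TfR1-deficient label (log2 fold change -0.60, SE 0.29, unadjusted p = 0.0909 by edgeR's test across all genes), and its count is uncertain because the A1 genes are nearly identical. *Bcl2l2* was at 0.438 to 2.48 CPM. Of 8 other pro-death genes 5 were tested and 0 had p under 0.05, and the lowest p was that of *Bcl2l13* (log2 fold change -0.27, SE 0.15, unadjusted p = 0.123 by edgeR's test across all genes), which shares exon bases with *Bid*. The median of these 5 was 0.21, but it was -0.24 when WT replicate 2 was left out and -0.25 when TfR1-deficient replicate 1 was.

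**Figure D4:**
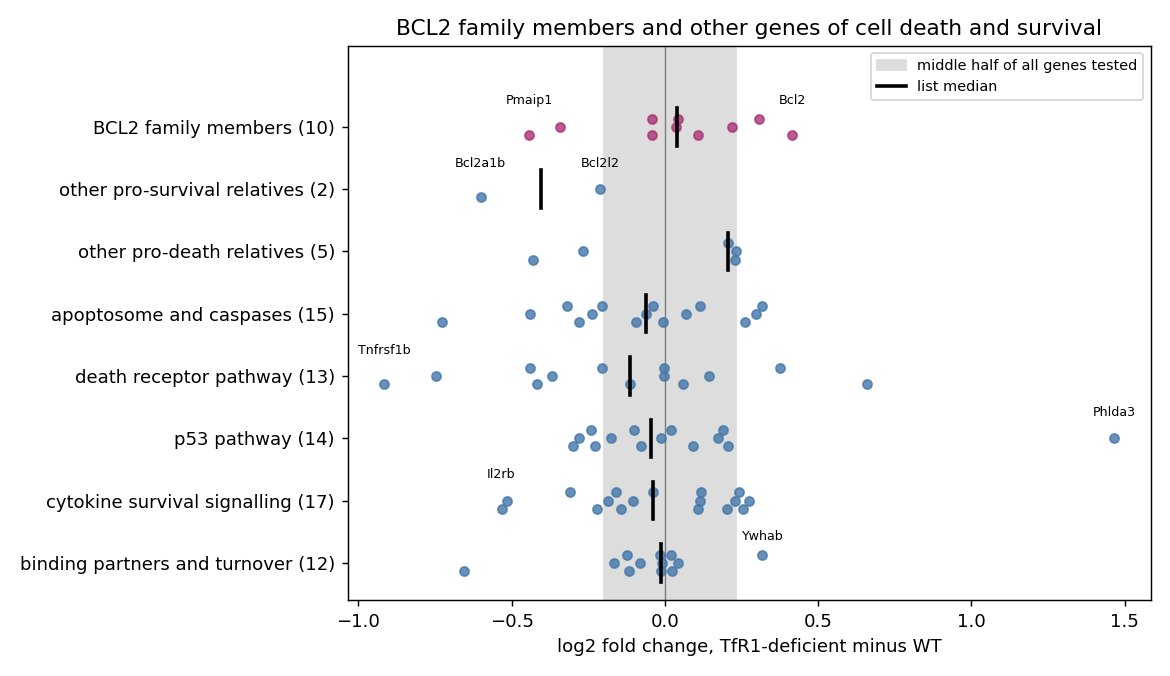
Log2 fold change (TfR1-deficient minus WT) of each tested gene of the family and of 7 related lists, with the number tested in brackets, a black line at each list's median and grey for the middle of all genes tested, between the quartiles at -0.20 and 0.23. The medians of the family (0.04), of the p53 list (-0.05) and of cytokine signalling (-0.04) lie near 0, and *Tnfrsf1b* at -0.92 and *Phlda3* at 1.47 are the outermost points.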

How the data were processed

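The 4 RNA-seq libraries of sorted Treg cells were grouped by the labels' genotype. The authors deposited whole-number counts of reads per gene, not normalized and not pooled. The submitters' processing notes name Trim Galore 0.6.7, STAR 2.7.9a, featureCounts and mm10, whereas the study's methods name mm9. The annotation release, the strand and the handling of multiply mapped reads are not given in the sources used here, and 14930 identifiers are absent from GENCODE vM1. No normalization by the authors entered these values. Of 47729 genes, the 12536 kept by filterByExpr were tested after TMM scaling with edgeR 4.0.16 (quasi-likelihood, genotype only, two-sided, Benjamini-Hochberg) in R 4.3.3. SE is the log2 fold change over the square root of F, and intervals use its degrees of freedom. DESeq2 1.42.0, other scalings, filters and minimum changes, a replicate block and the omission of each library were alternatives. Averaged over genes, replicates differed far beyond counting noise (chi-square per degree of freedom 32.1 for WT and 50.4 for TfR1-deficient). The common biological coefficient of variation was 32.3%. Among the family genes counting noise was highest for *Bbc3*, at up to 7.96%, so their precision was set mainly by replicates rather than depth. Genes with few counts, such as *Phlda3* with 6 to 31 per library, carry more counting noise. The scripts were tested on simulated data.

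The genes and lists were chosen with earlier results of these data known. Named genes are the 10 family genes, in each list the genes at unadjusted p under 0.05 with a log2 change of at least 0.5 or otherwise the one with the lowest p, the 3 profiles nearest to the family gene with the lowest p by edgeR, and *Tfrc*, *Foxp3*, *Csf1r* and *Mki67*. *Casp8*, *Fas*, *Il2rb*, *Foxo1*, *Foxo3*, *Trp53*, *Bcl2l2* and *Ctla4* were added after their values were seen. Symbols were matched by name, or through RefSeq synonyms where no name matched, for 144 of 148 list entries. Coordinates and promoters are those of RefSeq on GRCm38.p6 (mm10), and exon lengths those of GENCODE vM1. Protein sequences were not used here, and 1 gene of the lists is counted but not reported by name.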

Additional observations from a re-analysis of the deposited data

How the results depend on the processing

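Across the alternatives run, 0 of the 10 family genes was called. The fold change of *Bcl2* lay between 0.42 and 0.45 and that of *Pmaip1* between -0.44 and -0.41 over 6 other scalings, filters, tests and terms, each with p under 0.05 in 5 of 6. With a replicate block, which took the replicate number as a term, 0 of the 10 had p under 0.05, and 0 of all genes were called. By edgeR's test across all genes, the unadjusted p was then 0.137 for *Bcl2* and 0.0991 for *Pmaip1*. Deviations of same-numbered libraries correlated at -0.61, so these libraries did not deviate alike. The labels do not say whether same-numbered libraries were made together. With the crossed pairing, chosen after seeing the data, 360 genes were called over all, 2 in the related lists and 0 in the family, of which 4 had p under 0.05 and 1 an adjusted p under 0.05 with a change smaller than the minimum.

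Without each library in turn, 0 of the 10 had p under 0.05 (0 to 0 over the 4 fits), where the lone library is assumed to vary like the other genotype. *Bcl2* stayed between 0.40 and 0.45, *Pmaip1* between -0.47 and -0.39, *Mcl1* between 0.11 and 0.34, *Bax* between 0.17 and 0.47 and *Bak1* between -0.58 and -0.03. Genotypes that did not overlap fixed the sign in advance for all of these but *Bak1*. Signs turned for *Bbc3* (-0.25 to 0.41), *Bcl2l1* (-0.25 to 0.16), *Bcl2l11* (-0.27 to 0.46), *Bad* (-0.19 to 0.12) and *Bid* (-0.13 to 0.21), each with an interval that included 0 in the fit to all libraries.

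Over all genes, 0 were called as reported, 262 with genes of at least 1 count in any library (1 in the related lists, *Tnfrsf1b*) and 34 by DESeq2; the causes were not tested. At unadjusted p under 0.05 with a log2 change of at least 0.5 there were 511 genes, but 1095 without the filter and 211 with the replicate block. Without each library in turn, the difference in log2 ratio turned sign for *Bcl2* to *Bcl2l11* (-0.05 to 0.72), *Mcl1* to *Bcl2l11* (-0.34 to 0.62), *Bcl2l1* to *Bcl2l11* (-0.65 to 0.40), *Bcl2* to *Bax* (-0.04 to 0.25) and *Mcl1* to *Bax* (-0.18 to 0.01). The difference for *Bcl2* to *Bak1* kept its sign (0.44 to 1.03), which was fixed in advance because this ratio did not overlap between genotypes. With 2 libraries per genotype, the 95% intervals of 8 family genes included 0, and changes inside them were not detectable here.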
